A study of Mus musculus with 8 samples.

Results

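Glutathione transferases and the genes that NRF2 controls were examined in SLMAP3-/- and WT MEFs, to ask whether Mgst1 and Ugt1a7c were higher in the SLMAP3-/- lines alone or together with the known NRF2 targets. The set holds 34 of the 55401 genes listed. It has 3 membrane glutathione transferases, 20 cytosolic and mitochondrial glutathione transferases, 2 UDP-glucuronosyltransferases, 7 NRF2 target genes, and Nfe2l2 and Keap1, which encode NRF2 and its inhibitor. Mgst1 and Ugt1a7c were chosen from their difference between the genotypes in these same 8 lines, so their values are given as a description and without a test. The other 32 were chosen by name and family, with earlier results of these data known.

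MEFs, mouse embryonic fibroblasts, were grown from the body of B6C3F1 embryos at E14.5 after the head and organs were taken out, and each line came from a different embryo. There were 4 SLMAP3-/- lines, from mice without SLMAP3 in any tissue, and 4 WT lines, with 1 library per line. All 8 lines had been transfected with SV40 large T antigen and passaged until immortalized, and all grew in medium with fetal bovine serum and β-mercaptoethanol, a thiol. The sample labels name no oxidant or drug that activates NRF2. The lines are named by genotype and replicate number, and the plots write KO for SLMAP3-/-.

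Glutathione transferases join glutathione to reactive, mostly electrophilic molecules, and UDP-glucuronosyltransferases join glucuronic acid to phenols, bilirubin and drugs, which makes them easier to export. NRF2 is a transcription factor that KEAP1 marks for degradation in resting cells. Electrophiles and oxidants modify KEAP1, NRF2 then accumulates, and with small MAF proteins it binds antioxidant response elements (AREs) beside genes for glutathione synthesis, thioredoxin reduction, quinone reduction and many glutathione transferases. In MEFs, Nqo1, Gclc, Gclm and Srxn1 are commonly used as readouts of NRF2.

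The libraries held between 49879059 and 63322486 estimated counts, and values are given as CPM after TMM normalization. Slmap, the targeted gene, was at 38.3 ± 4.94 CPM (SD, n = 4) in SLMAP3-/- MEFs, compared with 137 ± 8.60 CPM (SD, n = 4) in WT, and edgeR's quasi-likelihood test gave it a log2 fold change of -1.84 and an adjusted p of 0.00119. It was the only gene called at an adjusted p under 0.05 in edgeR, 0.00647% of the 15461 genes tested, and none of the members were called. At an unadjusted p under 0.05, edgeR had 280 genes, 1.81% of those tested. DESeq2 called 11 of 33816 genes, or 0.0325%. The only member among them was Mgst1, and since it was chosen from its difference in the same lines, that call is no independent test. Y-linked genes were expressed in SLMAP3-/- line 2 and WT line 3 and at or near 0 in the other 6. Of 10 fibroblast markers all passed the filter on low counts, Fn1 with between 5481 and 9234 CPM, and of 5 hepatocyte markers none passed, with a summed level of at most 0.36 CPM in any line.

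Mgst1 (ENSMUSG00000008540.11; GRCm38 chr6:138140316-138156755, plus strand) encodes a transferase of the endoplasmic reticulum and outer mitochondrial membranes that also reduces lipid hydroperoxides. It had 34.3, 13.4, 17.1 and 20.1 CPM in SLMAP3-/- lines 1 to 4 and 3.60, 5.77, 6.75 and 9.86 CPM in WT lines 1 to 4. Every SLMAP3-/- line was above every WT line, line 1 was the highest of the SLMAP3-/- lines, and WT line 4 was the nearest to them. The mean was 21.2 ± 9.15 CPM (SD, n = 4) against 6.49 ± 2.60 (SD, n = 4), a ratio of 3.27, and in edgeR the log2 fold change was 1.71 (standard error 0.37). Among the tested genes 42 had a higher log2 fold change. With each line left out in turn the value lay between 1.38 and 1.99. No stretch of 31 bases of its coding transcripts was found in a transcript of another gene, so its reads are not divided with a copy. All SLMAP3-/- lines lay above all WT lines for 112 tested genes, 0.724% of them, and all below for 82, or 0.53%.

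Ugt1a7c (ENSMUSG00000090124.7; GRCm38 chr1:88095062-88220002, plus strand) belongs to the Ugt1 locus, in which alternative first exons are spliced to the same set of downstream exons, so that the enzymes differ in the part that binds the substrate and share the part that binds the sugar donor. Its level was low. It had 1.45, 0.50, 1.12 and 0.364 CPM in SLMAP3-/- lines 1 to 4 and 0.210, 0.213, 0.189 and 0.119 CPM in WT lines 1 to 4. These came from 84, 25, 70 and 19 estimated counts and from 13, 11, 10 and 7, so counting error adds to the spread between lines. All SLMAP3-/- lines were above all WT lines, with lines 1 and 3 apart from lines 2 and 4. The mean ratio was 4.71, and the log2 fold change was 2.23 (standard error 0.50), with 11 tested genes higher. It lay between 1.85 and 2.48 with each line left out in turn.

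Ugt1a6a (ENSMUSG00000054545.17; GRCm38 chr1:88134809-88218997, plus strand), an enzyme for small planar phenols from the same locus, had 5.99, 2.70, 3.00 and 2.88 CPM in SLMAP3-/- lines 1 to 4 and 1.02, 2.11, 2.57 and 2.99 CPM in WT lines 1 to 4. SLMAP3-/- line 1 was the highest and WT line 1 the lowest, while the other lines of both genotypes overlapped. The log2 fold change was 0.75 (standard error 0.40, 95% interval -0.17 to 1.66, unadjusted p = 0.0971 in edgeR), between 0.40 and 0.94 with each line left out.

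The reads of Ugt1a7c and Ugt1a6a are hard to tell apart. Of the 31-base stretches of Ugt1a6a coding transcripts in GENCODE M21, 94.97% are also in Ugt1a7c transcripts, and 53.8% of those of Ugt1a7c are in Ugt1a6a transcripts. A Ugt1a7c transcript with its own first exon (ENSMUST00000058237.13; exon 1 at chr1:88095064-88095978) shares 1313 bases with Ugt1a6a. The shared stretch begins after 913 bases, at the very end of the 915 bases of exon 1, and continues into the second exon. Another transcript that the annotation files under Ugt1a7c (ENSMUST00000113135.5) contains the exon at chr1:88138473-88139331, which is also an exon of Ugt1a6a (ENSMUST00000113134.7), and holds the whole 2297 bases of that Ugt1a6a transcript with a longer end. The last 40 bases before the shared stretch, in lower case, and its first 40 bases, in capitals, show where the shared stretch begins.
Ugt1a7c: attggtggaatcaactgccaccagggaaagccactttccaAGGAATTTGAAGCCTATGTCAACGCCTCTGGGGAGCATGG
Ugt1a6a: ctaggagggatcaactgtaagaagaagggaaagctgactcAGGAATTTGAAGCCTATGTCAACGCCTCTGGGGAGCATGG

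Added together, Ugt1a7c and Ugt1a6a had 7.44, 3.20, 4.13 and 3.24 CPM in SLMAP3-/- lines 1 to 4 and 1.23, 2.32, 2.76 and 3.11 CPM in WT lines 1 to 4. The groups did not overlap, but SLMAP3-/- lines 2 and 4 were close to WT line 4. Ugt1a7c was chosen for its difference and the lines overlapped for Ugt1a6a alone, so this order is a description and no test. Over all tested genes, 0.724% had all SLMAP3-/- lines higher. For Ugt1a7c and Ugt1a6a together the ratio of the means was 0.94 on the log2 scale, compared with 2.23 for Ugt1a7c alone. The share of that sum assigned to Ugt1a7c was 19.5%, 15.6%, 27.2% and 11.2% in SLMAP3-/- lines 1 to 4 and 17.1%, 9.17%, 6.85% and 3.83% in WT lines 1 to 4, so the shares of the genotypes overlapped. The other 7 genes of the locus did not pass the filter on low counts, and their summed level was at most 0.492 CPM in any line. With them added to the sum, the nearest lines of the genotypes were SLMAP3-/- line 4 with 3.28 CPM and WT line 3 with 3.25 CPM. How the quantification divided reads between Ugt1a7c and Ugt1a6a was not tested.

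**Figure D1:**
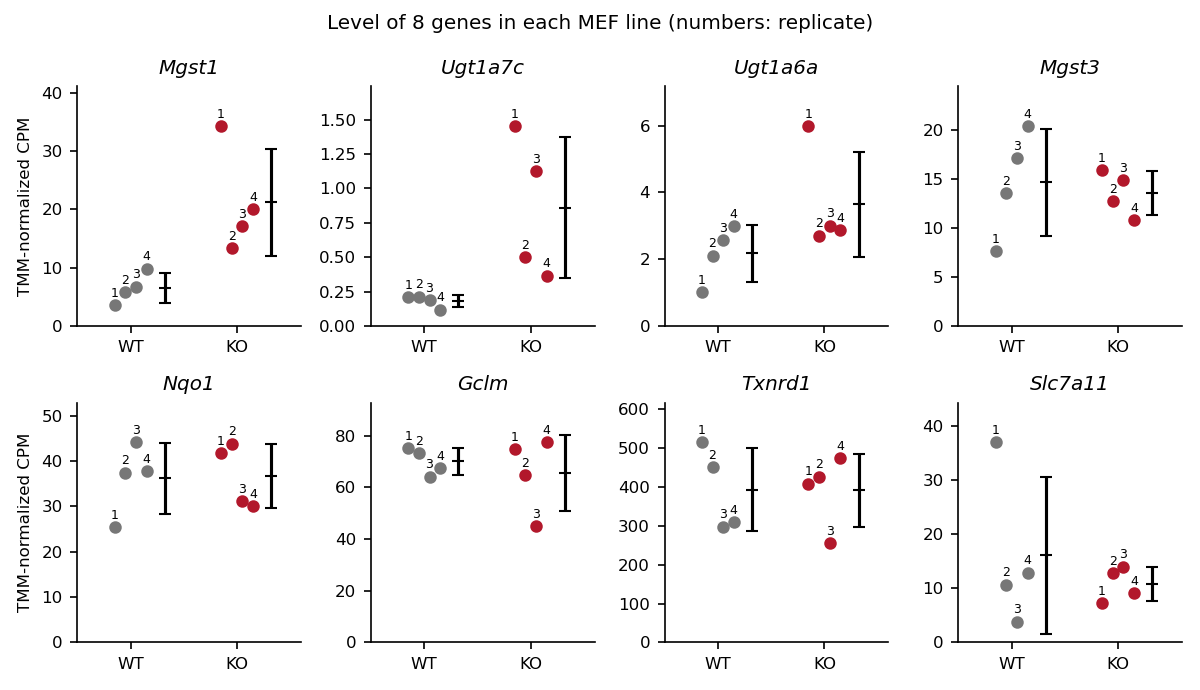
Points show the TMM-normalized CPM of 8 genes in each MEF line, numbered by replicate, with the WT lines in grey and the SLMAP3-/- lines (KO) in red, and bars show the mean and SD of 4 lines. All SLMAP3-/- points lie above all WT points for Mgst1 and Ugt1a7c, and the points of the genotypes overlap for Ugt1a6a, Mgst3, Nqo1, Gclm, Txnrd1 and Slc7a11.

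The 7 NRF2 target members lay on both sides of no difference. All of them passed the filter, none was called, and none had lines that did not overlap between genotypes, where edgeR called 0.00647% of all tested genes and 0.724% had all SLMAP3-/- lines higher. In log2 fold change 2 were above 0 and 5 below, with a median of -0.05 against -0.0014 for all tested genes, and the values ran from -0.58 for Slc7a11 to 0.13 for Srxn1. The lowest unadjusted p was 0.134. For 6 of the 7 the 95% interval lay within a log2 fold change of 1 in either direction, so a 2-fold difference lay outside the interval for those genes.

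Nqo1, a quinone reductase, had 41.8, 43.8, 31.1 and 30.0 CPM in SLMAP3-/- lines 1 to 4 and 25.4, 37.4, 44.1 and 37.8 CPM in WT lines 1 to 4. Lines of both genotypes lay at the top and at the bottom. Its log2 fold change was 0.02 with a 95% interval of -0.42 to 0.46. The 2 lines highest in Nqo1, WT line 3 and SLMAP3-/- line 2, were also the 2 that expressed Y-linked genes, and the part of embryo sex in this was not tested.

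Gclc and Gclm encode the catalytic and modifier subunits of the enzyme that sets the rate of glutathione synthesis. Gclc had 58.0, 49.0, 45.8 and 53.2 CPM in SLMAP3-/- lines and 61.2, 53.7, 45.2 and 53.0 in WT lines, in the order of the replicates, and its interval was -0.31 to 0.21. Gclm had 74.9, 64.7, 45 and 77.4 CPM in SLMAP3-/- lines and 75.2, 73.4, 64.2 and 67.4 in WT lines, with an interval of -0.47 to 0.27. SLMAP3-/- line 3 was the lowest line for Gclm, and the other 7 lay together.

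Txnrd1, the cytosolic thioredoxin reductase, had 409, 426, 256 and 474 CPM in SLMAP3-/- lines and 514, 451, 298 and 309 in WT lines. The log2 fold change of Txnrd1 was -0.0060 (95% interval -0.55 to 0.54), with SLMAP3-/- line 3 and WT lines 3 and 4 below the rest. Srxn1, the sulfiredoxin that restores oxidized peroxiredoxins, had between 37.3 and 52.5 CPM in SLMAP3-/- lines and between 35.9 and 55.8 in WT lines, with a log2 fold change of 0.13 (95% interval -0.24 to 0.51).

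Hmox1, the haem oxygenase that opens the haem ring, had 97.4, 123, 108 and 84.6 CPM in SLMAP3-/- lines and 116, 125, 120 and 112 in WT lines. The 3 lowest lines were SLMAP3-/- and line 2 lay among the WT lines. The log2 fold change was -0.20 (95% interval -0.46 to 0.07), and it stayed between -0.29 and -0.11 with each line left out.

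Slc7a11, the cystine transporter that supplies cysteine for glutathione, varied the most of the NRF2 targets. It had 7.25, 12.8, 14.0 and 9.11 CPM in SLMAP3-/- lines 1 to 4 and 36.9, 10.6, 3.80 and 12.9 CPM in WT lines 1 to 4. WT line 1 was the highest and WT line 3 the lowest of all 8. Its log2 fold change was -0.58 with an interval of -1.92 to 0.77, and it became 0.25 without WT line 1. Slc7a11 is also a target of ATF4, the transcription factor of the amino acid and endoplasmic reticulum stress responses. Of 9 ATF4 target genes in a list that includes Atf4, WT line 1 was the highest of all 8 lines for 9, and WT line 3 was the lowest for 7. The same count over all tested genes was not made, and the part of ATF4 in the spread of Slc7a11 was not tested. The ATF4 list had a median log2 fold change of -0.02, with Chac1 highest at 0.15 and Trib3 lowest at -0.17, and no gene was called.

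Nfe2l2 and Keap1 had the smallest standard errors of the members tested, 0.08 for each. Nfe2l2 had between 86.4 and 95.6 CPM in SLMAP3-/- lines and between 85.9 and 101 in WT lines, with a log2 fold change of -0.04 (95% interval -0.22 to 0.13). Keap1 had between 72.6 and 84.9 CPM in SLMAP3-/- lines and between 74.5 and 81.4 in WT lines, with a log2 fold change of 0.05 (95% interval -0.12 to 0.22). These are RNA levels, and NRF2 is controlled mainly through the stability of its protein, which was not measured here.

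**Figure D2:**
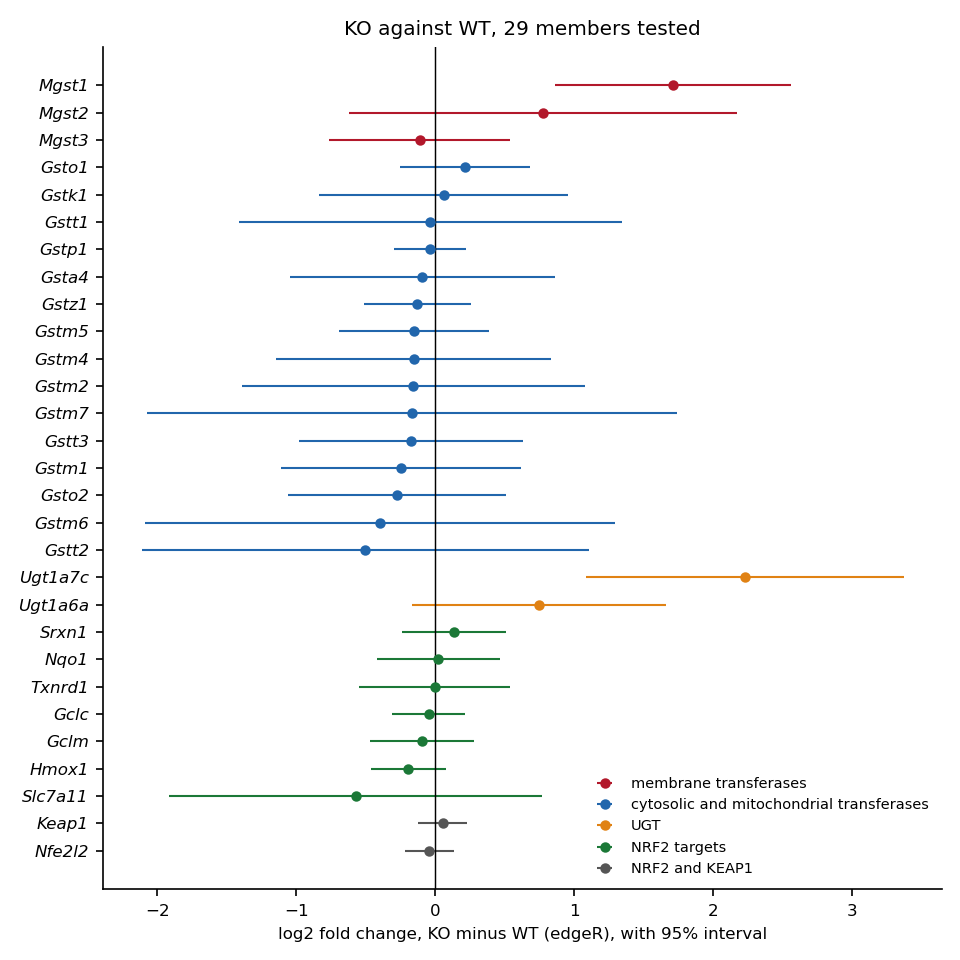
Points show the log2 fold change between SLMAP3-/- (KO) and WT lines for the 29 members tested, with the 95% interval of edgeR's fit, coloured by the kind of gene. Mgst1 at 1.71 and Ugt1a7c at 2.23 lie to the right. These 2 were chosen for this difference, so their place and their intervals are a description and no test. The intervals of the other 27 include 0.

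The NRF2 target members were also compared with Nqo1 across the 8 lines, in 8 relations that include Nfe2l2 and Keap1. None passed a two-sided exact permutation test after Benjamini-Hochberg adjustment over the 8 relations. Slc7a11 had a Pearson r of -0.73 (p = 0.0315, adjusted p = 0.252, exact permutation test) and a Spearman rho of -0.62 (p = 0.115, adjusted p = 0.342, exact permutation test), and r was -0.60 without WT line 1 and SLMAP3-/- line 4, the lines farthest from the median of Nqo1. Hmox1 had the highest r at 0.32 (p = 0.450, adjusted p = 0.671, exact permutation test), with a rho of 0.36 (p = 0.389, adjusted p = 0.571, exact permutation test), and r was 0.21 without those 2 lines. For the other 6 genes r lay between -0.42 and -0.01. Without the 2 lines left out r became 0.70 for Gclm, 0.51 for Txnrd1, 0.48 for Srxn1, 0.30 for Nfe2l2 and 0.17 for Gclc, and -0.48 for Keap1. Within the 4 SLMAP3-/- lines r was 0.29, 0.32, 0.73, 0.13, 0.32 and -0.69 for these genes in the same order. Within the 4 WT lines it was -0.82, -0.82, -0.99, -0.61, -0.94 and 0.77, each of the opposite sign. Hmox1 (0.60 and 0.29) and Slc7a11 (-0.18 and -0.96) kept their sign in SLMAP3-/- and WT lines. The values within a genotype were not tested.

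The same comparison was made for the other glutathione transferases. Of the 22, 17 passed the filter, and none was called or had genotypes that did not overlap. Over all tested genes edgeR called 0.00647%, and 0.724% had all SLMAP3-/- lines higher and 0.53% all lower. In log2 fold change 3 were above 0 and 14 below, with a median of -0.15, and they ran from -0.51 for Gstt2 to 0.77 for Mgst2. The 95% interval stayed within a log2 fold change of 1 in either direction for 7 of the 17, and for the other 10 it included a 2-fold difference in at least 1 direction.

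Among the membrane transferases, Mgst3, a relative of leukotriene C4 synthase, had 15.9, 12.7, 14.9 and 10.8 CPM in SLMAP3-/- lines 1 to 4 and 7.61, 13.5, 17.1 and 20.4 CPM in WT lines 1 to 4. The WT lines spread around the SLMAP3-/- lines, and the log2 fold change was -0.11 (95% interval -0.76 to 0.54). Mgst2, a glutathione transferase that can also make leukotriene C4, had 0.329, 0.280, 1.22 and 0.192 CPM in SLMAP3-/- lines and 0.403, 0.174, 0.265 and 0.340 in WT lines. SLMAP3-/- line 3 alone was high, and the log2 fold change of 0.77 became -0.15 without that line. Summed over the 3 membrane transferases, the level was between 26.4 and 50.6 CPM in SLMAP3-/- lines and between 11.6 and 30.6 CPM in WT lines, which overlapped.

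The cytosolic enzymes with the highest WT level per kb were Gstp1 and Gsto1. Gstp1, the pi class enzyme, had 127, 104, 113 and 89.9 CPM in SLMAP3-/- lines 1 to 4 and 107, 105, 119 and 116 CPM in WT lines 1 to 4, with a log2 fold change of -0.04 (95% interval -0.30 to 0.22). Of its 31-base stretches 57.8% are shared with Gstp2, which was at most 0.289 CPM in any line. Gsto1, an omega class enzyme that reduces glutathione adducts, had 130, 148, 115 and 78.8 CPM in SLMAP3-/- lines and 114, 115, 101 and 75.9 in WT lines. Line 4 was the lowest of each genotype for Gsto1, and its log2 fold change was 0.21 (95% interval -0.26 to 0.68). Gstz1, which isomerizes maleylacetoacetate in tyrosine breakdown, had a log2 fold change of -0.13 (95% interval -0.52 to 0.25), and Gstk1, a mitochondrial and peroxisomal enzyme, of 0.06 (95% interval -0.83 to 0.96).

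The mu class genes lie in a cluster on chromosome 3. Gstm1 had 50.7, 33.5, 56.0 and 18.3 CPM in SLMAP3-/- lines 1 to 4 and 27.8, 37.4, 62.7 and 60.3 CPM in WT lines 1 to 4, and SLMAP3-/- line 4 was the lowest of all. Gstm5 had 31.6, 27.0, 36.1 and 15.4 CPM in SLMAP3-/- lines and 27.0, 29.2, 34.4 and 31.7 in WT lines, again with SLMAP3-/- line 4 below the others. Gstm7 ranged from 0.173 CPM in SLMAP3-/- line 4 to 3.84 CPM in WT line 3, with an interval of -2.07 to 1.74. The summed Gstm level was between 37.5 and 113 CPM in SLMAP3-/- lines and between 66.4 and 113 CPM in WT lines. Gstm1 shares 30.4% of its 31-base stretches with other genes, mostly with the pseudogene Gstm2-ps1, which is not in this sum, so its value is less certain. Gstm5 shares none. Gstm2, Gstm4 and Gstm6 had log2 fold changes of -0.16, -0.16 and -0.40.

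The theta class genes Gstt1, Gstt2 and Gstt3 had log2 fold changes of -0.04, -0.51 and -0.18. Gstt1 ranged from 4.20 CPM in SLMAP3-/- line 4 to 19.0 CPM in WT line 4, and 2 lines of each genotype were high. Gsta4, the alpha class enzyme for 4-hydroxynonenal, had 12.2, 3.86, 6.30 and 2.97 CPM in SLMAP3-/- lines and 6.21, 5.44, 7.42 and 8.01 in WT lines, with a log2 fold change of -0.10 (95% interval -1.05 to 0.86). Gsto2, which reduces dehydroascorbate, had a log2 fold change of -0.28 at levels under 0.6 CPM. Gsta1, Gsta2, Gsta3, Gstm3 and Gstp2 did not pass the filter, with at most 26 estimated counts in any line.

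The lines of a genotype differed from each other in the level of the transferases. SLMAP3-/- line 4 was the lowest SLMAP3-/- line for 15 of the 17, compared with 29.6% of all tested genes, and it was the lowest of all 8 lines for 9. SLMAP3-/- line 3 was the highest of its genotype for 11 of the 17 (28.0% of all tested genes), and WT line 3 was the highest WT line for 10 (26.3% of all tested genes). Without SLMAP3-/- line 4 the median log2 fold change of the 17 was 0.05 in place of -0.15. Summed over the 20 cytosolic and mitochondrial genes, the level was 421, 365, 414 and 241 CPM in SLMAP3-/- lines 1 to 4 and 330, 344, 405 and 378 CPM in WT lines 1 to 4, a mean of 360 ± 83.2 (SD, n = 4) against 364 ± 33.8 (SD, n = 4). In bulk RNA, fewer cells that express these genes and less RNA of them per cell cannot be told apart.

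**Figure D3:**
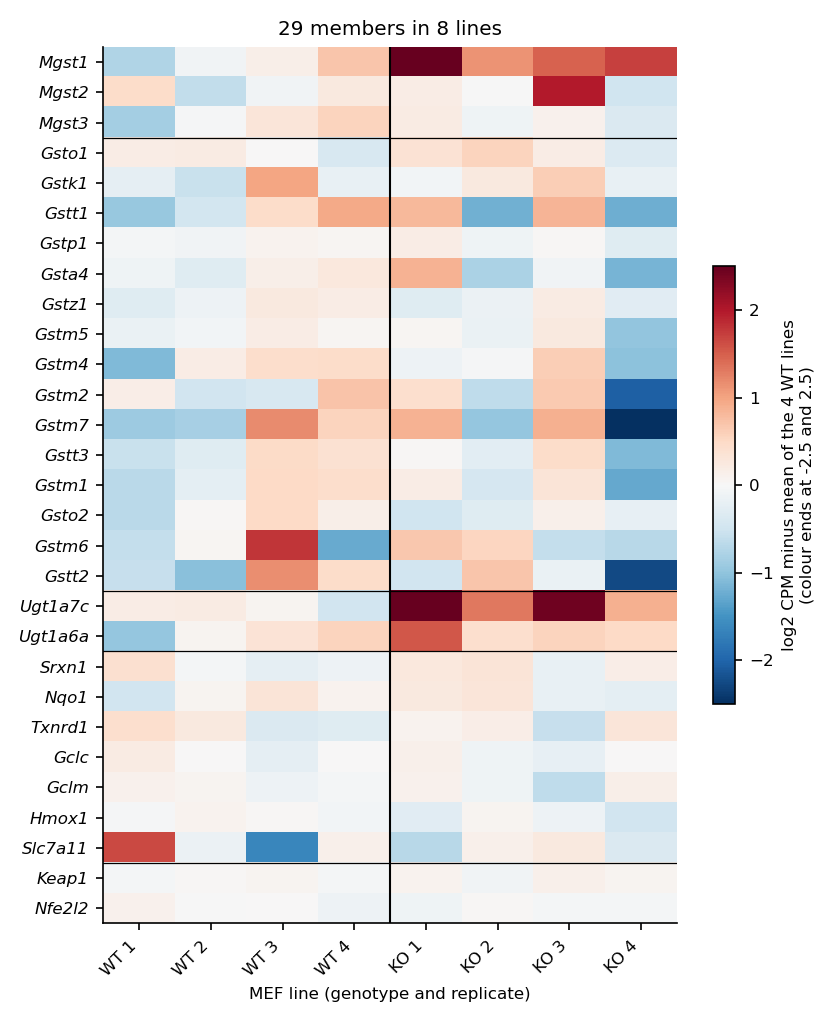
Rows are the 29 members tested and columns the 8 lines (KO, SLMAP3-/-), and colour gives the log2 CPM of a line minus the mean of the 4 WT lines. Mgst1 is red in all 4 SLMAP3-/- lines, the transferases of SLMAP3-/- line 4 are mostly blue, and Slc7a11 is red in WT line 1 and blue in WT line 3.

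Mgst1 was not among the abundant transferases of WT MEFs. Per kb of coding transcript, the mean WT level was 138 CPM per kb for Gstp1, 130 for Gsto1, 118 for Txnrd1, 75.4 for Hmox1, 69.9 for Gclm and 53.3 for Gstm1. Gstp1 and Gsto1 overlapped between lines. Mgst1 had 7.85 CPM per kb, beside Gsta4 with 7.87, and Mgst3 had 13.4 CPM per kb. Ugt1a6a had 0.959 CPM per kb and Ugt1a7c 0.0565, near the lower end of the set. Across WT lines the coefficient of variation of the tested transferases other than Mgst1 ran from 5.97% for Gstp1 to 108% for Gstm6, with 40.1% for Mgst1.

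**Figure D4:**
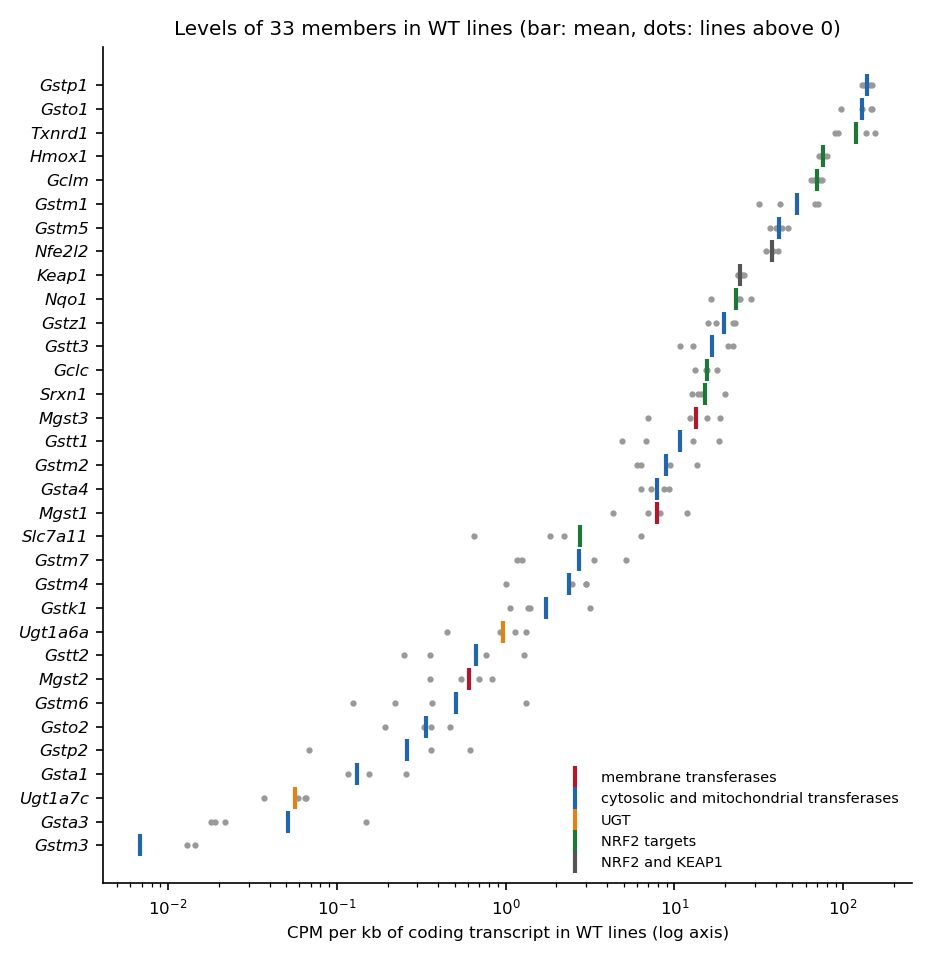
Bars show the mean WT level of 33 members in CPM per kb of coding transcript on a log axis, and dots show the WT lines above 0. Gstp1 and Gsto1 are at the top with 138 and 130 CPM per kb, Mgst1 lies lower at 7.85 and Ugt1a7c near the bottom at 0.0565.

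Promoter sequence was compared because NRF2 acts through the ARE. Of the 34 members 30 had a promoter of 250 bases before to 50 bases after the start in RefSeq (GRCm38.p6), 41 promoters in all. The ARE was searched as the letters TGACNNNGC on both strands and matched 8 promoters of 8 members, 19.5% of the 41, compared with 12.4% of 32851 promoters of all genes. The 8 matches are shown in capitals with 10 bases on either side, in the direction of the gene, so that a match on the other strand appears as its reverse complement.
Mgst1: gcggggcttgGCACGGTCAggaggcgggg
Gclm: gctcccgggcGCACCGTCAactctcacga
Txnrd1: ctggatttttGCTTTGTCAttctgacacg
Srxn1: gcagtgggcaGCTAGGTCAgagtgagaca
Nfe2l2: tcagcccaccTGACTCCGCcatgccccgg
Gstm5: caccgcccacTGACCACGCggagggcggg
Gstm7: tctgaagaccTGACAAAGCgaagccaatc
Gsta3: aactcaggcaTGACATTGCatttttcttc

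The match of Mgst1 lies on the minus strand in chr6:138140461-138140489 with its first base 56 bases before the RefSeq start, and GENCODE places the start of the gene further upstream, at 138140316, so that this stretch is also part of a GENCODE transcript of Mgst1. The match of Gclm lies 134 bases before its start, that of Txnrd1 92 bases before the start of 1 of its promoters, and that of Srxn1 begins at base 29 of the gene. Gclm, Txnrd1 and Srxn1, which hold the same motif, had log2 fold changes of -0.10, -0.0060 and 0.13. Nfe2l2, Gstm5 and Gstm7, which also hold it, had -0.04, -0.15 and -0.17, and Gsta3 did not pass the filter. Sequence outside these promoters was not searched. A match is a description of letters and not a binding site.

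The RefSeq promoter of Ugt1a7c at chr1:88094751-88095000 held no match. It lies before the gene's own first exon, and another transcript filed under Ugt1a7c (ENSMUST00000113135.5) starts further downstream, at chr1:88103252. The 250 bases before the RefSeq start are shown because Ugt1a7c was the other gene chosen for its difference.
Ugt1a7c: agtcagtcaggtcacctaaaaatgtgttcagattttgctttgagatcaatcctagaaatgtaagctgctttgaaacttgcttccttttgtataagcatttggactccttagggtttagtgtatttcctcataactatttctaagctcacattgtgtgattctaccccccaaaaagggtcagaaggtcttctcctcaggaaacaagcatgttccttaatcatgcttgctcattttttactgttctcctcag
The letters GCGTG, the core that the aryl hydrocarbon receptor binds, matched 31.7% of the members' promoters on either strand and 32.4% of all promoters, and they did not match those of Mgst1 and Ugt1a7c.

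Other genes of these pathways were counted in lists, where edgeR called 0.00647% of all tested genes. Of 28 further NRF2 target genes 24 were tested and none was called, 7 with a log2 fold change above 0 and 17 below, with a median of -0.11, from 0.25 for Cbr3, a carbonyl reductase, to -0.68 for Aox1, an aldehyde oxidase. Gpx4, the peroxidase for membrane lipid hydroperoxides, was the only one of these with all SLMAP3-/- lines above all WT lines. Of all 15461 tested genes 112 had that order, or 0.724%. It had 239, 242, 240 and 261 CPM in SLMAP3-/- lines 1 to 4 and 216, 222, 209 and 228 CPM in WT lines 1 to 4, a log2 fold change of 0.17 (standard error 0.07, unadjusted p = 0.0548, adjusted p = 1.00 in edgeR). The 11 other regulators of NRF2 had a median log2 fold change of 0.0084, from 0.15 for the repressor Bach1 to -0.29 for Nfe2l3, and none was called. The 18 genes of glutathione synthesis and turnover had 4 above and 14 below 0, with a median of -0.10 and Ggt5 lowest at -0.92, and none was called.

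The aryl hydrocarbon receptor list, whose factor is known to drive Ugt1a6 and Nqo1, had 6 of 7 genes tested, none called, with 4 above and 2 below 0 and a median log2 fold change of 0.45. Cyp1b1 had 175, 219, 154 and 371 CPM in SLMAP3-/- lines 1 to 4 and 189, 137, 84.0 and 57.0 CPM in WT lines 1 to 4. The lines of the genotypes overlapped through WT line 1, and the log2 fold change was 0.98 (standard error 0.41, unadjusted p = 0.0404, adjusted p = 1.00 in edgeR). Arnt had a log2 fold change of -0.01 (standard error 0.10) and Ahrr of 0.23 (standard error 0.24). Ahr itself had a log2 fold change of 0.68 (standard error 0.33, unadjusted p = 0.0696 in edgeR), and its lines overlapped between genotypes. Cyp1a1, its most specific target, was highest in the list at 1.10 (standard error 1.25), from 6.31 CPM in SLMAP3-/- line 4 against at most 0.623 CPM in the other SLMAP3-/- lines. WT lines 1 to 4 had 0.0806, 0.290, 1.36 and 1.72 CPM of Cyp1a1, so WT lines 3 and 4 were above those 3 SLMAP3-/- lines. Tiparp was lowest in the list at -0.07. The part of this receptor in the levels of Ugt1a6a and Nqo1 was not tested.

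Of the remaining lists, 4 of 13 other UDP-glucuronosyltransferase and precursor genes were tested, from 0.14 for Ugdh to -0.87 for Ugt8a, and none was called. The other membrane genes of the Mgst1 family that were tested were Alox5ap at 0.79 and Ptges at -0.52, both with lines that overlapped. Of 13 further genes of the glutathione transferase fold 7 were tested, from 0.10 for Vars to -1.18 for the pseudogene Gstp-ps, and none was called.

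Markers of other cell types were low or overlapped between genotypes. Of 6 haematopoietic markers 2 were tested, with a summed level of 2.56 to 5.50 CPM in SLMAP3-/- lines and 2.37 to 3.67 CPM in WT lines. Of 5 endothelial markers the 2 tested were Kdr at 0.35 and Tek at 1.41 in log2 fold change, with a summed level of 16.6 to 40.5 CPM in SLMAP3-/- lines and 9.47 to 27.5 CPM in WT lines. Tek had 12.0, 12.2, 7.82 and 2.11 CPM in SLMAP3-/- lines 1 to 4 and 1.55, 4.76, 3.88 and 2.70 CPM in WT lines 1 to 4, and its part in the Mgst1 difference was not tested. Of 7 epithelial markers 4 were tested, from -0.69 for Epcam to 0.57 for Krt19, of 5 neural markers 4, from -0.85 for Nes to 0.27 for Sox2, and of 5 muscle markers 2, from -0.52 for Des to 0.64 for Acta1. The fibroblast markers ran from -1.13 for Lum to 0.49 for Thy1, with a median of -0.20.

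The genes beside Mgst1 and Ugt1a7c were looked at within 500 kb. Of 3 tested genes near Mgst1, all on its left, the nearest was Dera at 283 kb with a log2 fold change of 0.05, and the 3 lay between -0.03 and 0.10. The 7 tested genes near Ugt1a7c lay between -0.05 and 0.75. Ugt1a6a (0.75) and Dnajb3, a co-chaperone gene (0.70, standard error 0.53, unadjusted p = 0.220 in edgeR) overlap Ugt1a7c. Usp40, at 86.5 kb on the left, had -0.05, and Hjurp, at 42.5 kb on the right, had 0.57 (standard error 0.24, unadjusted p = 0.0448, adjusted p = 1.00 in edgeR). Hjurp loads the centromeric histone CENP-A, and its lines overlapped between genotypes.

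The 5 tested genes whose log2 CPM followed that of Mgst1 most closely over the 8 lines were Fbln1 with a Pearson r of 0.95, Gm21781 with 0.95, Ehmt2 with 0.93, Tango2 with 0.93 and Prdm11 with 0.93. These are descriptions over lines of 2 genotypes that share the difference in Mgst1. Among the members r was highest for Ugt1a6a at 0.89 and Ugt1a7c at 0.78, and it was 0.28 for Nqo1 and -0.71 for Nfe2l2. Mgst1 and Ugt1a7c were both chosen for their difference between the genotypes, so a high r between them follows from that choice. Ugt1a6a shares 94.97% of its 31-base stretches with Ugt1a7c, so the 2 values of r are not separate observations. SLMAP3-/- line 1 was the highest of the 8 lines for Mgst1, Ugt1a7c and Ugt1a6a, and WT line 1 was the lowest for Mgst1 and Ugt1a6a.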

How the data were processed

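Total RNA of 8 immortalized MEF lines was made into stranded mRNA libraries. The authors assigned reads to transcripts of GRCm38 (GENCODE M25) with Salmon and deposited a length-scaled estimated count per gene and line, with no normalization between lines. Salmon divides reads that match several transcripts, which can affect Ugt1a7c, Ugt1a6a, Gstp1, Gstp2, Gsta1, Gsta2, Gstm1, Gstm3 and Gstt3, each with over 20% of its 31-base stretches shared with other genes. A second deposited table holds the authors' own DESeq2 comparison, with log2 fold changes and p-values, and was not used. Salmon's version is not given in the sources used here.

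Groups came from the sample titles. Estimated counts were rounded, filtered by filterByExpr with a minimum count of 10 (15461 of 55401 genes kept) and normalized by TMM, and SLMAP3-/- was compared with WT by edgeR 4.0.16 (quasi-likelihood test, R 4.3.3, no covariate), with p-values adjusted over the tested genes by Benjamini-Hochberg and a threshold of 0.05. Log2 CPM used a prior count of 2, and 95% intervals come from the same fit. Correlation tests used scipy 1.17.1. A count of 3 corresponds to 0.0482 to 0.0600 CPM. Intervals at low counts reflect counting error as well as the spread between lines.

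The members and gene lists were chosen with earlier results of these data known. All 34 members are named. Of the lists, genes called, genes without overlap and the genes with the highest and lowest log2 fold change are named, with the nearest tested gene on either side of Mgst1 and Ugt1a7c and the 5 genes most correlated with Mgst1. Values of Ahr, Ahrr, Arnt, Cyp1b1, Dnajb3, Fn1 and the endothelial genes were added after they were seen. Gene positions, exons and shared 31-base stretches are from GENCODE M21 (GRCm38), and promoters from RefSeq.

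Same-numbered lines came from different embryos, and their deviations from the genotype means had correlations of -0.16, 0.06, 0.19 and -0.0032, so the replicate numbers do not pair them. The alternatives were DESeq2 1.42.0, limma-voom (limma 3.58.1), DESeq2 size factors, other filters, Y-linked expression as a covariate, a replicate block, a threshold of 0.1, a prior count of 0.5 and leaving out each line. edgeR, DESeq2 and limma-voom were tested on simulated data. Sequencing reads and protein measurements were not analysed here.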

Additional observations from a re-analysis of the deposited data

Results flagged for a closer look

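In 3 of 58 sets of 4 lines, the 29 tested members in each genotype, 1 line stood apart from the other 3 by Dixon's test, and chance alone gives about 2.9 at 1 in 20. Mgst2 was at 1.22 CPM in SLMAP3-/- line 3 against 0.192 to 0.329 CPM in the others (gap over range 0.867). Gstk1 was at 2.95 CPM in WT line 3 against 0.987 to 1.29 CPM (gap over range 0.845). Ugt1a6a was at 5.99 CPM in SLMAP3-/- line 1 against 2.70 to 3.00 CPM (gap over range 0.908).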

How the results depend on the processing

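The number of genes called was 1 (Slmap) and of members called 0 in the edgeR fit. DESeq2 called 11 genes and 1 member, Mgst1, which was chosen from its difference in these lines, so the call is no independent test. With the replicate block edgeR called 0 genes and 0 members, and Slmap was lost. Every other alternative that was fitted called 1 gene and 0 members. The median log2 fold change of the NRF2 targets lay between -0.12 and 0.05 with each line left out, above 0 without SLMAP3-/- line 3 (0.05) and without WT line 1 (0.03), and that of the other transferases lay between -0.31 and 0.05, above 0 without SLMAP3-/- line 4. Of 430 values of members under 15 alternatives, 38 changed sign, in 18 members, none of which was called, and the values of Mgst1 and Ugt1a7c stayed above 0. Ugt1a7c was not tested where at least 10 counts were required in every library. Counts were low for Ugt1a7c (7 to 84 per line), Mgst2 (9 to 76) and Gstm7 (9 to 203), among others, and counting error was not separated from the spread between lines.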
